A study of Macaca mulatta with 8 samples.

Results

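Retinal pigment epithelium (RPE) cells were sought in all 8 single-cell libraries by their marker RNA. A barcode with at least 1500 UMIs (unique molecular identifiers, each counting 1 captured RNA molecule) and 300 genes was taken as a member when RPE65, BEST1, TYRP1, PMEL, LRAT and RDH5 together held at least 10 UMIs and at least 0.1% of its UMIs. The UMIs of huRPE65, the feature for the human transgene, were not counted. The rule found 470 members among 91803 barcodes that passed the UMI and gene minimum, or 0.512%. The members were thus chosen on the levels of those 6 genes, and those levels are given below as a description.

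The RPE is a single layer of pigmented epithelium behind the photoreceptors. It turns all-trans-retinol back into the 11-cis-retinal that rods and cones need, through LRAT, RPE65 and RDH5, takes up shed outer segments, moves ions, water and metabolites between the choroid and the retina, and secretes proteins to both sides. Its pigment granules need melanosome proteins such as TYRP1 and PMEL, and BEST1 is a chloride channel of its basolateral membrane. It is also the cell type in which RPE65 itself is made and a direct target of subretinal vectors with a ubiquitous promoter.

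The tissue came from male rhesus macaques. NHP1, aged 5 years, had received AAV2-CAG-hRPE65 under the retina of both eyes, a vector that carries human RPE65 behind the ubiquitous CAG promoter, and both of its libraries are from areas given as uninjected. NHP2, aged 6 years, had received AAV8-GRK1-mScarlet (a red fluorescent reporter) and AAV8-GRK1-hRPGR (a codon-optimized RPGR, the feature coRPGR in the counts) in separate blebs of each eye, both behind the photoreceptor promoter GRK1, and gave 1 library per eye from each bleb and from an uninjected area. All eyes had been vitrectomized and given the steroid triamcinolone, and intravitreal adalimumab, an antibody against TNF, was added in the left eye of each animal. The 2 eyes of NHP2 are the replicates of each condition and belong to 1 animal, so the p-values below measure the spread between eyes and areas of that animal only. The neural retina was lifted off the RPE before papain dissociation, so RPE cells were not the tissue sampled, and how the members came into the libraries was not tested. A smaller number of cells and a poorer recovery of them cannot be told apart in these libraries.

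The libraries held 90634306 to 146519011 UMIs and 9564 to 15080 passing barcodes each. Any pair of libraries had 135 to 255 passing barcode sequences in common, no barcode was a member in more than 1 library (0 of 28 pairs), and 49 members had a barcode that also passed in another library. The left NHP1 library stood apart from its label. Although it is given as uninjected, 7021 of its 15080 passing barcodes held huRPE65 UMIs, against 8 of 10818 in the right NHP1 library, so it is called here the library labelled uninjected and the main counts that rest on it are also given without it.

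The label RPE did not hold for all members. Of the 470, 199 (42.3%) also carried the RNA of RGR, a retinal G-protein-coupled receptor of the RPE, and TTR, the retinol carrier transthyretin, at 10 or more UMIs and 0.1% or more of UMIs together. Another 203 carried rod markers in place of RGR and TTR, 58 carried Müller glia markers, and 10 carried none of these. This division uses genes outside the rule and was made after the values had been seen. The 199 barcodes are called RGR/TTR members below, and the others are named by the markers they carried.

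**Figure D1:**
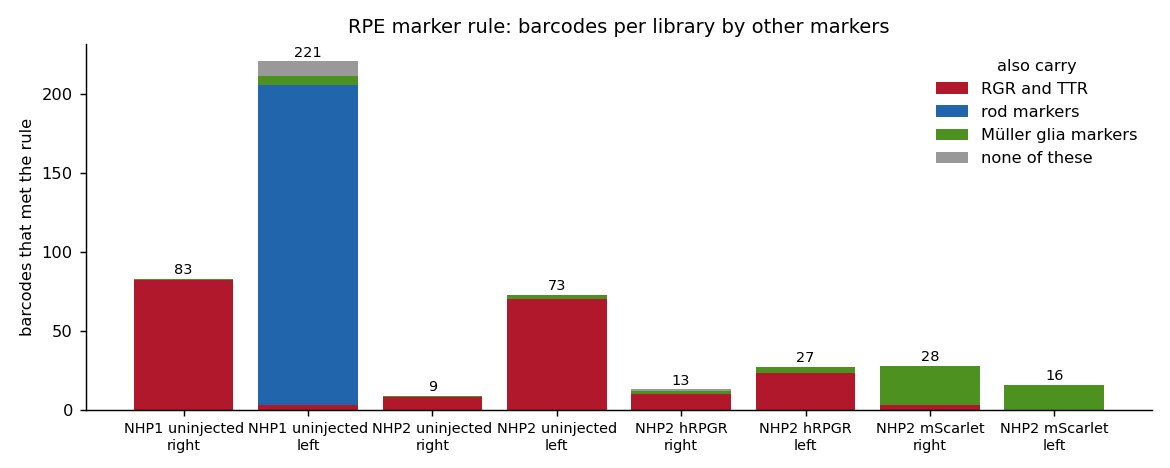
Number of barcodes that met the RPE marker rule in each library (vertical axis, barcodes), with each bar divided by the other markers the barcodes carried and the total printed above it. The left NHP1 library holds 221 of the 470 members, of which 203 carry rod markers, while the 16 members of the left mScarlet bleb carry Müller glia markers.

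The kinds of member were spread very unevenly over the libraries. The right NHP1 library held 83 members, of which 82 were RGR/TTR members, whereas the left NHP1 library held 221 members with 3 RGR/TTR members. In NHP2, the left uninjected area had 73 members with 70 RGR/TTR members, and the right uninjected area had 9 with 8. The hRPGR blebs had 13 members on the right, 10 of them RGR/TTR members, and 27 on the left, 23 of them RGR/TTR members. In the mScarlet blebs, the right one had 25 Müller-marker members of 28 and the left one 16 of 16, with 3 and 0 RGR/TTR members. A count of 0 in the left mScarlet bleb allows a share of RGR/TTR members of up to 0.0266% of its 11270 passing barcodes by the limit of 3 counts, and of up to 0.0327% by the exact binomial interval at 95%, as far as counting error goes.

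The RGR/TTR members and the others differed in how far they passed the rule. The RGR/TTR members had a median of 120 UMIs of the 6 rule genes, of which a median of 5 were detected. The rod-marker members had a median of 15 such UMIs and the Müller-marker members a median of 12, with a median of 2 genes detected in each. Among the 170 members with 30 or more rule UMIs, 162 were RGR/TTR members. Just inside the threshold, at 10 to 12 rule UMIs, 6 of 106 members were RGR/TTR members, and just outside it, 5 of 170 barcodes with 7 to 9 rule UMIs met the RGR and TTR minimum. A further 60 barcodes had 10 or more rule UMIs at 0.08% to under 0.1% of their UMIs, and 0 of them met the RGR and TTR minimum. Without the left NHP1 library, RGR/TTR members were 161 of 162 with 30 or more rule UMIs and 6 of 37 at 10 to 12, and the minimum was met by 4 of 77 barcodes at 7 to 9 and 0 of 49 at 0.08% to under 0.1%.

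**Figure D2:**
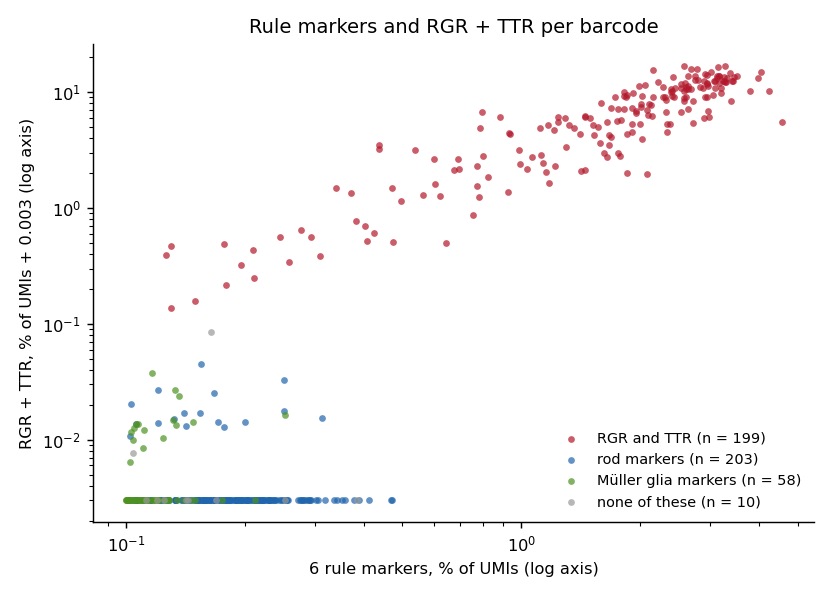
Share of UMIs from the 6 rule genes (horizontal axis, percent, log scale) against the share from RGR and TTR together (vertical axis, percent plus 0.003, log scale) for the 470 members, coloured by the other markers they carried. The 199 RGR/TTR members reach the highest shares on both axes, and most of the other members lie on the line of no RGR or TTR UMIs.

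The rod-marker members all came from the left NHP1 library and met the rule mainly through RPE65. Native RPE65 was found in 203 of 203 of them with a median of 12 UMIs and a range of 5 to 35. The other genes that define the RPE were nearly missing, with BEST1 in 2, TYRP1 in 1, LRAT in 3 and RGR in 0 of the 203 barcodes. RDH5 was found in 183 of them at a median of 2 UMIs, but this retinol dehydrogenase was at 142 to 206 UMIs per 1000000 (CPM, counts per 1000000 UMIs) across the barcodes of every library that did not meet the rule. The 16 genes of the rod list made up a median of 4.38% of their UMIs, against a median of 4.29% in the rod-marker barcodes of the same library (barcodes outside the rule that met a rod rule of 1% of UMIs and the rule of no other class). Of the UMIs pooled, the shares were 4.33% and 4.72%. Both sets were chosen on rod markers, so their rod shares are a description. The members were deeper, with a median of 8256 UMIs against 3866.

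Native RPE65 moved with the transgene feature in that library. Each of the 203 rod-marker members carried huRPE65, with a median of 38 UMIs and a range of 7 to 107. Over all 221 members there were 2926 native and 8786 huRPE65 UMIs, or 0.333 native UMIs per transgene UMI, a ratio raised by the choice of members on native RPE65. The ratio was lower in barcodes outside the rule. It was 0.211 in rod-marker barcodes, 0.203 in bipolar-marker barcodes and 0.219 in Müller-marker barcodes. Members had been taken out of these sets, so the sets were chosen against native RPE65. The 208 members that met the rod rule held 2768 native and 8395 huRPE65 UMIs, a ratio of 0.330. How close the sets lie without this choice was not tested. In low-count barcodes, those of 100 to 1000 UMIs that stand for free RNA, the ratio was 0.213. These lie below the UMI minimum, so the rule did not act on them. Among rod-marker barcodes of that library, native RPE65 was found in 27.7% of the 2535 with huRPE65 and in 9.20% of the 2803 without it. UMI totals were not matched between these sets, and the part of depth in the difference was not tested. In the right NHP1 library, the 6190 rod-marker barcodes held 98 native RPE65 UMIs and 0 huRPE65 UMIs. How many of the native RPE65 UMIs in the left NHP1 library came from reads of the human sequence was not tested, and without that library 249 members remained, of which 196 were RGR/TTR members.

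**Figure D3:**
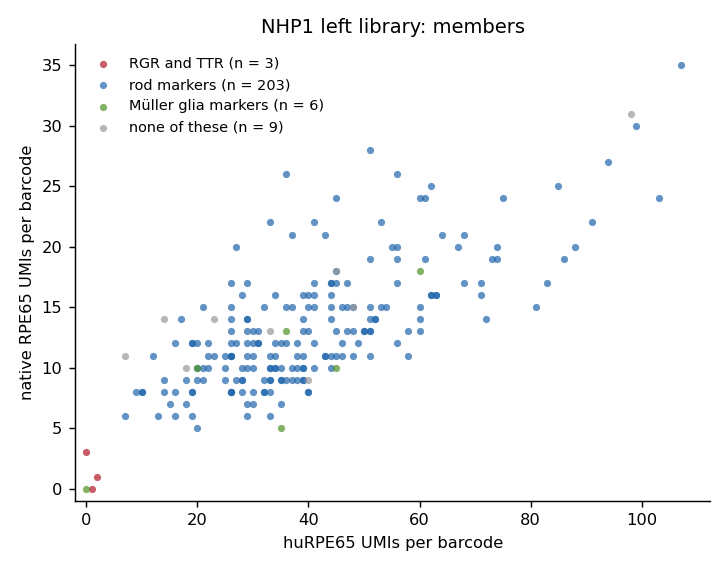
Native RPE65 UMIs (vertical axis) against huRPE65 transgene UMIs (horizontal axis) in each of the 221 members of the left NHP1 library, coloured by the other markers they carried. The 203 rod-marker members spread along a rising band up to 35 native and 107 transgene UMIs, while the 3 RGR/TTR members sit at the origin with at most 3 native and 2 transgene UMIs.

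Most Müller-marker members met the rule mainly through TYRP1 and RDH5. TYRP1, a melanosome protein, had a median of 8 UMIs in these 58 barcodes and RDH5 a median of 4, while the medians of RPE65, BEST1 and LRAT were 0. Glutamine synthetase (GLUL), the enzyme that Müller glia use to clear glutamate, had a median of 105 UMIs, and the glutamate transporter SLC1A3 a median of 23.5 UMIs, against 6 and 0 in the RGR/TTR members. TYRP1 was also present in the Müller-marker barcodes of each library at large, at 21.6 to 199 CPM, and was highest in the right mScarlet bleb. In the rod-marker barcodes its level was 0.449 to 9.87 CPM. The 6 Müller-marker members of the left NHP1 library differed from the other 52, with RPE65 in 5 of 6 at a median of 10 UMIs, TYRP1 at a median of 0 and huRPE65 at a median of 35.5 UMIs. In the other 52, TYRP1 was found in all 52 at a median of 8 UMIs, RPE65 in 11, BEST1 in 7 and LRAT in 0.

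The RGR/TTR members carried most of the rule genes together. Members were chosen on the sum of these genes, so their levels are a description. RPE65 was found in 96.5% of the RGR/TTR members, LRAT in 89.9%, RDH5 in 100%, BEST1 in 95% and TYRP1 in 99.0%. In the 5 libraries with at least 5 RGR/TTR members, RPE65 was at 2844 CPM of their summed UMIs in the right NHP1 library, 2628 and 3539 CPM in the right and left hRPGR blebs, and 2259 and 2669 CPM in the right and left uninjected areas of NHP2. In the same 5 libraries BEST1 varied more, from 4190 CPM in the right NHP1 library to 419 CPM in the right hRPGR bleb. It was at 1902, 2240 and 1017 CPM in the right uninjected area, the left hRPGR bleb and the left uninjected area. The 2 libraries with 3 RGR/TTR members each lay apart in RPE65. These members held 4 native RPE65 UMIs of 23455 UMIs in the left NHP1 library and 32 of 5778 in the right mScarlet bleb. PMEL, the fibril protein of melanosomes and the sixth rule gene, added little, at 14.9 to 140 CPM.

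Genes outside the rule also varied between the libraries. RGR and TTR were used to divide the members, and their levels are a description. RGR was at 17302 CPM in the right NHP1 library, 11702 and 8190 CPM in the right and left uninjected areas, and 2279 and 14208 CPM in the right and left hRPGR blebs. TTR reached 96943 CPM in the right NHP1 library, and 25162 to 46326 CPM in the 4 NHP2 libraries. The right hRPGR bleb, with 10 RGR/TTR members of a median 3768.5 UMIs each, had the lowest RGR, TTR, TYRP1, BEST1, RDH5 and LRAT levels of the 5 libraries. The retinoid-handling proteins STRA6 (the receptor for retinol-binding protein) and RLBP1 (an intracellular binding protein for 11-cis-retinal) were at 395 to 1613 and 1605 to 4595 CPM. RBP4, the plasma retinol-binding protein itself, was at 0 in every RGR/TTR member.

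RGR was the 1 gene outside the rule that passed a 2-fold limit in the pooled members of every library. Of 6794 genes with at least 100 UMIs in members, 4 (0.0589%) were at least 2-fold higher in members than in the other passing barcodes of the same library in all 8 libraries, on a log2(CPM + 1) scale. These were RPE65, TYRP1 and BEST1, which chose the members, and RGR. The lowest log2 difference of RGR was 2.92, in the left NHP1 library, and the highest 11.78, in the right NHP1 library. RGR was not shared by all kinds of member, since 68 of the 69 RGR UMIs in members of the left NHP1 library were in its 3 RGR/TTR members, and 13 of the 58 Müller-marker members held any. The count rose to 203 genes without the left NHP1 library and to 14 without the left mScarlet bleb. With the RGR/TTR members alone, 349 of 2328 genes (15%) were at least 2-fold higher in all 5 libraries and 58 at least 2-fold lower.

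The promoter windows of RGR and TYRP1 are shown. Of the 4 genes that passed the 2-fold limit in the pooled members of all 8 libraries, these hold an E-box of the kind bound by MITF. MITF is the transcription factor of pigment cells. The windows were thus picked for the motif, and neither gene was high in every kind of member. The windows are the 250 bases before the gene start on the gene's strand in RefSeq's annotation of Mmul_10, written 5′ to 3′, and capitals mark CATGTG or its reverse complement CACATG. RGR is on the minus strand at chr9:53805843-53806092 and TYRP1 on the minus strand at chr15:70896635-70896884.
RGR: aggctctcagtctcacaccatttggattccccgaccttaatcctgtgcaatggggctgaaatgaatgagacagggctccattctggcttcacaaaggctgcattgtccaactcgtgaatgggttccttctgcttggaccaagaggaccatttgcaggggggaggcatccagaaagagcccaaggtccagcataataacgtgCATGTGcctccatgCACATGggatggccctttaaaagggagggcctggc
TYRP1: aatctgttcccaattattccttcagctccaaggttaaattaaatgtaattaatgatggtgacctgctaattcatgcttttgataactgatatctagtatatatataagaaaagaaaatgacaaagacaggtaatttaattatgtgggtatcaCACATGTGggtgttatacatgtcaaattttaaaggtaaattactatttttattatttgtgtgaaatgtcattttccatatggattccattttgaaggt
The RGR window held the motif at 2 places, which began 49 and 35 bases before the gene start. In TYRP1 the 2 matches overlap, since the 8 letters CACATGTG read as the motif on both strands, and began 98 and 96 bases before the start. CATGTG on either strand was found in 8.25% of 20774 macaque promoter windows of the same length, and CACGTG, the other form searched, in 6.45%. The windows of RPE65 and BEST1 held neither.

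Pigment genes differed in level among themselves. Of the 14 genes of the melanosome list, 5 had at least 100 UMIs in RGR/TTR members. Genes low in these members cannot pass that minimum, so this count and those of the lists below are a description. Of the 5, 4 were at least 2-fold higher than in other barcodes in all 5 libraries, against 15% of all genes with that depth. They were GPNMB at 358 to 1321 CPM, the transporter SLC45A2 at 186 to 412 CPM, the exchanger SLC24A5 at 46.5 to 403 CPM and MYRIP, which links melanosomes to myosin, at 374 to 524 CPM. Tyrosinase (TYR), the first enzyme of melanin synthesis, was at 0 to 17.4 CPM and DCT, a later one, at 0 to 1.93 CPM. Melanocyte markers had to be looked for, since the choroid also holds pigmented cells. SOX10, also a Schwann cell marker, was at least 2-fold higher in all 5 libraries, at 69.6 to 187 CPM against 0.108 to 0.504 CPM in other barcodes, while MLANA was at 0 to 30.9 CPM and PAX3 at 0 in these 5 libraries, and 1 RGR/TTR member met the melanocyte rule.

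Of 19 genes of the transport list, 16 had at least 100 UMIs in RGR/TTR members. Of these 16, 12 were at least 2-fold higher in all 5 libraries, against 349 of 2328 genes (15%) of that depth in all. SLC16A8, a lactate transporter of the RPE, was at 116 to 860 CPM in RGR/TTR members and at 0.27 to 0.995 CPM in other barcodes. BSG, which carries lactate transporters to the membrane, was at 1558 to 5047 CPM, the sodium pump subunit ATP1B1 at 953 to 4251 CPM, the carbonic anhydrase CA14 at 512 to 1649 CPM and the potassium channel KCNJ13 at 119 to 289 CPM. The chloride channels CFTR and ANO1 were at 0 in all RGR/TTR members.

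Of 16 genes of uptake and digestion of outer segments, 9 had at least 100 UMIs in RGR/TTR members. Of these 9, 7 were at least 2-fold higher in all 5 libraries, against the same 15% of all genes of that depth. Cathepsin D (CTSD), the main protease of RPE lysosomes, was at 15221 CPM in the right NHP1 library, 14028 and 5644 CPM in the right and left uninjected areas, and 3000 and 12954 CPM in the right and left hRPGR blebs. ITGAV, part of the integrin that binds outer segments, was at 977 to 1762 CPM and MERTK, the receptor that starts engulfment, at 87 to 153 CPM. CD36, a scavenger receptor, was at 0.

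Secreted proteins took up a large part of the RNA. Of 19 genes of the secreted and matrix list, 15 had at least 100 UMIs. Of these 15, 12 were at least 2-fold higher in all 5 libraries. For all 2328 genes of that depth, and for the lists that follow, the share to set beside it is 15% higher, with 58 genes lower. The protease inhibitor CST3 was at 15651 to 50198 CPM and prostaglandin D synthase (PTGDS) at 12558 to 48775 CPM. SERPINF1, the pigment epithelium-derived factor, was at 6577 CPM in the right NHP1 library, 6116 and 9355 CPM in the right and left hRPGR blebs, and 5537 and 3760 CPM in the right and left uninjected areas. TIMP3 at 1907 to 12857 CPM, ENPP2 (autotaxin) at 2791 to 7742 CPM and EFEMP1 at 1087 to 2673 CPM are proteins that the RPE lays down or releases. Of 11 junction genes, 7 had that depth and 5 were higher in all 5 libraries. CLDN19, a tight junction protein of the RPE, was at 69.8 to 285 CPM and P-cadherin (CDH3) at 161 to 310 CPM, while E-cadherin (CDH1) was at 0. Of 12 transcription factors, 6 had that depth. Of these 6, 3 were higher, namely SIX3, ZNF503 and BHLHE40. VAX2, the 1 that was lower, was at 7.47 to 116 CPM against 156 to 264 CPM in other barcodes. OTX2 was at 255 to 381 CPM against 137 to 159 CPM in other barcodes.

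The genes outside the rule with the highest ratios in RGR/TTR members were TTR, RGR, STRA6, SLC39A12, BAIAP2L2, SLC6A20, BMP4, SLC45A2, ENPP2, ECRG4, ERMN, GJA1, SFRP5, PLTP and SLC22A8. Their lowest log2 difference over the 5 libraries ran from 6.95 for SLC22A8, an organic anion transporter, to 9.53 for TTR. STRA6 was higher by at least 8.12 and the zinc transporter SLC39A12 by at least 8.0 on the log2 scale. Since RGR and TTR chose these barcodes, and the other genes were read in those same barcodes, the ratios describe the barcodes and test nothing.

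Markers of other cell types varied among the RGR/TTR members. The pericyte gene PDGFRB, at 44.8 to 140 CPM against 2.98 to 7.52 CPM in other barcodes, and the cone gene CNGB3, at 93.0 to 679 against 16.8 to 37.3 CPM, were at least 2-fold higher in all 5 libraries, as was SOX10, and their part in the results was not tested. The defining endothelial genes PECAM1 and CDH5 and the fibroblast gene COL1A1 were at 0. The fibroblast list as a whole was not absent. Its 6 genes summed to 89.9 to 255 CPM in the 5 libraries, with 4 or 5 of the 6 at 0 in each. In the low-count barcodes of these libraries the sum was 30.6 to 86.1 CPM. The endothelial rule was met by 15 of the 199 through VWF, which was at 22.4 to 1093 CPM in RGR/TTR members and at 779 to 1451 CPM in the other barcodes. The Müller rule was met by 161 of the 199, through clusterin (CLU) at 1663 to 7944 CPM and GLUL at 611 to 1202 CPM, genes that are not particular to Müller glia, while SLC1A3 was at 0 to 110 CPM. The myeloid list summed to 44.8 to 82.4 CPM in 4 of the 5 libraries and to 1613 CPM in the right uninjected area, where 1 of the 8 RGR/TTR members also met the myeloid rule.

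Rod RNA in members was below its level in free RNA in most libraries. In the RGR/TTR members, the rod list made up 0.400% of UMIs in the right NHP1 library, 1.01% and 0.113% in the right and left hRPGR blebs, and 0.841% and 1.44% in the right and left uninjected areas. The low-count barcodes of the same libraries had 1.39%, 3.37%, 1.69%, 2.05% and 4.38%, and the rod-marker barcodes 5.79%, 5.05%, 6.64%, 6.92% and 5.71%. Müller-marker barcodes had 0.592%, 0.672%, 0.719%, 0.824% and 0.889%, and bipolar-marker barcodes 0.380%, 0.527%, 0.442%, 0.560% and 0.649%. The RGR/TTR members were above both of these sets in the right hRPGR bleb and the 2 uninjected areas of NHP2. They were below both in the left hRPGR bleb and between them in the right NHP1 library. Against the free RNA of their own library, the RGR/TTR members were below in these 5 libraries, with ratios from 0.0673 to 0.411 and a median of 0.299. Of the 2 libraries with 3 RGR/TTR members each, the right mScarlet bleb had a ratio of 0.289, and the left NHP1 library was above its free RNA, at 3.95% against 3.69%, a ratio of 1.07. Over all members the ratio was below 1 in 7 of 8 libraries with a median of 0.266, and the exception was again the left NHP1 library, at 1.12. A pair of features with no gene symbol held 24.4% to 67.6% of the UMIs of low-count barcodes, and with these left out of the totals the median ratio over all members was 0.129. The left NHP1 library was then no longer above its free RNA. Its shares were 4.59% in RGR/TTR members and 4.77% in all members, against 4.91% in low-count barcodes.

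**Figure D4:**
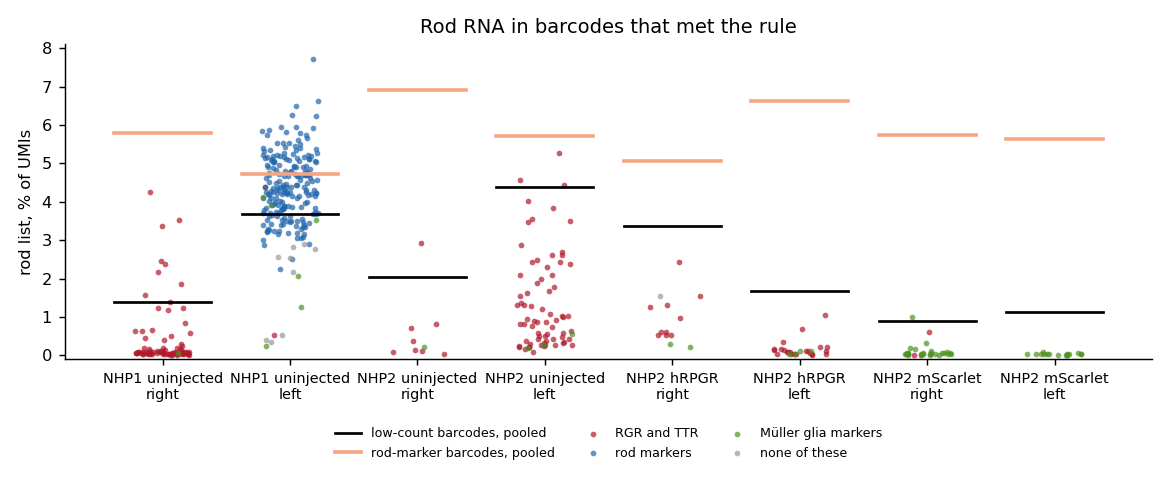
Share of UMIs from the rod list (vertical axis, percent) in each member, by library, with points coloured by the other markers carried. Black lines give the pooled share in low-count barcodes and orange lines that in rod-marker barcodes of the same library; most RGR/TTR members lie below the black line, and the rod-marker members of the left NHP1 library lie around both lines.

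Single RGR/TTR members ranged widely in rod RNA. The median per barcode was 0.0839% in the right NHP1 library with a maximum of 4.25%, and 0.944% in the left uninjected area with a maximum of 5.26%. The left uninjected area was also the library whose low-count barcodes held the most rod RNA and the most RPE RNA, with RGR at 115 CPM and TTR at 473 CPM there. Among the rod genes in RGR/TTR members were SAG, which encodes rod arrestin, with 1373 UMIs in all, and PDE6G, a subunit of the rod phosphodiesterase, with 1466. Of the 15 rod genes with at least 100 UMIs in RGR/TTR members, 0 were higher and 7 were at least 2-fold lower than in other barcodes in all 5 libraries, and 10 of the 199 met the rod rule of 1% of UMIs. Whether the rod RNA was free RNA, engulfed outer segment or an attached rod was not tested.

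Transgene RNA in RGR/TTR members was set against that in the neighbouring cell types. To compare shares, each barcode was thinned to 1500 UMIs, and intervals are exact binomial ones at 95%, which cover counting error only. In the right hRPGR bleb, coRPGR was found in 6 of 10 RGR/TTR members (60%, 26.2 to 87.8), against 91.0% of rod-marker barcodes, 51.7% of Müller-marker and 36.2% of bipolar-marker barcodes. In the left hRPGR bleb it was found in 6 of 23 (26.1%, 10.2 to 48.4), against 55.0%, 26.9% and 16%. Both intervals take in the shares of Müller-marker and bipolar-marker barcodes, cell types that are not photoreceptors. Both lie below the shares of rod-marker barcodes, 91.0% on the right and 55.0% on the left. The intervals treat barcodes of the same library as replicates and leave out the spread between eyes. Whether RGR/TTR members differ from any of these cell types was therefore not tested. Unthinned, 7 of 10 and 13 of 23 held coRPGR, and the summed levels were 1419 and 149 CPM, against 3482 and 2251 CPM in low-count barcodes. The highest count in any RGR/TTR member was 34 coRPGR UMIs, in the right hRPGR bleb.

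mScarlet was scarce in the members of its own blebs, of which 3 on the right and 0 on the left were RGR/TTR members. It was found in 0 of 28 members of the right bleb (0 to 12.3%) and 0 of 16 of the left bleb (0 to 20.6%) after thinning, with 2 UMIs and 1 UMI before it, against 31.3% and 27.3% of rod-marker barcodes. In the uninjected areas of NHP2, coRPGR was found in 0 of 9 and 0 of 73 members after thinning, with 1 UMI before it in the right area and 0 in the left. huRPE65 was found in 97.3% (94.2 to 99.0) of the 221 members of the left NHP1 library, which had been chosen on a gene whose UMIs moved with it, and in 0 of its 3 RGR/TTR members, with 3 UMIs before thinning. The 82 RGR/TTR members of the right NHP1 library held 2 huRPE65 UMIs beside 2624 native RPE65 UMIs.

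The share of members could not be shown to differ between bleb and uninjected libraries of NHP2, in a design that cannot reach a p of 0.05. It counts all members, the Müller-marker ones that make up most of the mScarlet blebs included. The 4 bleb libraries had 0.103%, 0.293%, 0.267% and 0.142% members (right hRPGR, right mScarlet, left hRPGR, left mScarlet), and the 2 uninjected areas 0.0880% and 0.604%. The mean was 0.201% in blebs and 0.346% outside them, a difference of -0.145 percentage points (exact permutation test, two-sided, p = 0.667), where the smallest p that the 15 arrangements allow is 0.133. With RGR/TTR members alone the means were 0.0845% and 0.328%, a difference of -0.244 percentage points (exact permutation p = 0.4). The result rested on the left uninjected area, and without it the difference over all members was 0.113 percentage points in the other direction. The exact permutation p was then 0.4, the smallest that the remaining arrangements allow.

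Members of the mScarlet blebs were compared with those of the uninjected areas on UMIs summed per library. In edgeR's quasi-likelihood test on 4035 genes, 431 (10.7%) had a Benjamini-Hochberg adjusted p below 0.05, 234 higher and 197 lower in the bleb. The groups compared were of different kinds, 41 of 44 mScarlet members carrying Müller glia markers and 78 of 82 uninjected members being RGR/TTR members. Of the 9 Müller genes tested, 6 were called higher, and of the 17 transport genes, 8 were called lower. Of the 5 rule genes tested, 4 were called lower. The rule genes chose the members, and the Müller markers, SLC1A3 among them, named their kind, so calls of these genes are a description. SLC1A3, the glial glutamate transporter, was higher by 3.62 ± 0.41 (log2, SE, edgeR adjusted p = 0.0230), PRSS35 by 5.62 ± 0.69 and FRZB by 3.27 ± 0.40 at the same adjusted p. PLTP, which is high in RGR/TTR members, was lower with a log2 difference of -5.51 and MYRIP with one of -4.82. With the eye as a block, 0 of the 431 calls remained (856 at an unadjusted p below 0.05, and an adjusted p of 0.0915 for these genes), while DESeq2 without the block called 357. With either mScarlet library left out 0 genes were called, without the right or the left uninjected area 358 and 145, and without the right or the left hRPGR bleb 732 and 666. A change within RPE cells and the change in the kind of barcode cannot be told apart in this comparison.

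Members of the hRPGR blebs were mostly RGR/TTR members, as were those outside, and the number of calls depended on the tool, the filter and the libraries. With edgeR, 0 of 4035 genes (0%) passed an adjusted p of 0.05, with 117 at an unadjusted p below 0.05, and DESeq2 called 3 (0.0743%). Among RGR/TTR members alone, 0 of 1612 genes (0%) passed with edgeR and 16 had an unadjusted p below 0.05, while DESeq2 called 4 (0.248%). Over all members, for both blebs together against the uninjected areas, edgeR called 0 of 4035 genes (0%), with 652 at an unadjusted p below 0.05. DESeq2 called 127. That comparison takes in the mScarlet members, 41 of 44 of which carried Müller glia markers, so the change in the kind of barcode enters it too. The genes DESeq2 called in RGR/TTR members were UBD, SERPINA3, CFB and coRPGR, the transgene of the bleb, all of them higher in the blebs.

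UBD, a ubiquitin-like modifier induced by inflammatory cytokines, had 60 and 171 UMIs in the RGR/TTR members of the right and left hRPGR blebs and 0 and 0 in the right and left uninjected areas. Its level was 1395 and 1277 CPM against 0. The pooled level was at least 251-fold higher than the 3-count floor of the uninjected areas together (DESeq2 adjusted p = 4.18e-07). How many of all genes separated the blebs from the uninjected areas in this way was not counted. Few barcodes carried it. UBD was found in 4 of 10 and 8 of 23 members, and 136 of the 171 UMIs on the left were in 1 barcode. SERPINA3, an acute-phase protease inhibitor, was at 2326 and 2255 CPM in the right and left blebs and at 17.0 and 81.2 CPM outside, 30.4-fold higher when pooled (DESeq2 adjusted p = 9.83e-07). It was found in 8 of 10 and 11 of 23 members of the blebs, and in 1 of 8 and 8 of 70 members of the uninjected areas. Here too single barcodes held much of the count, 75 of 100 UMIs on the right and 128 of 302 UMIs on the left.

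CFB, complement factor B, which drives the alternative pathway of complement, had 40 UMIs in the right and 37 UMIs in the left hRPGR bleb against 0 in either uninjected area, at least 83.5-fold higher than the floor (DESeq2 adjusted p = 0.000264). It was found in 8 of 10 and 6 of 23 members with at most 19 UMIs in any of them. With all 4 libraries edgeR called none of the 3 genes in these members, and its calls depended on which library was left out, the lone library of an arm being assumed to vary like the other group. Without the right hRPGR bleb edgeR called 4 of 3085 genes, among them UBD (adjusted p = 1.91e-07), SERPINA3 (4.17e-05) and CFB (0.00100). Without the left uninjected area, which leaves 1 uninjected library, most of the genes it called were lower in the blebs, and the higher ones were UBD, SERPINA3 and CFB. Without the right uninjected area or the left hRPGR bleb it called 0. In the right NHP1 library, UBD and CFB had 1 UMI each and SERPINA3 had 0 in 82 RGR/TTR members. The 3 RGR/TTR members of the right mScarlet bleb held 10 SERPINA3 UMIs, 2 CFB UMIs and 1 UBD UMI.

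**Figure D5:**
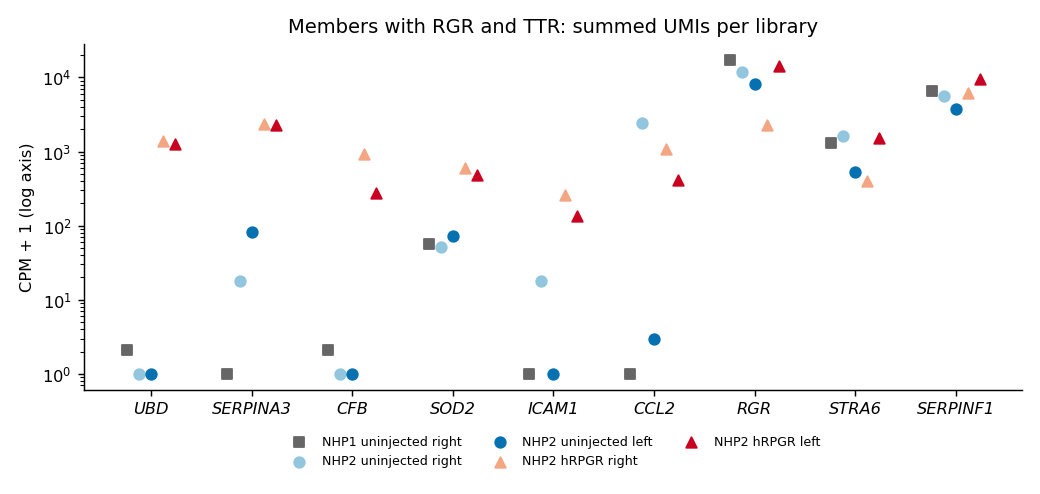
Levels of UBD, SERPINA3, CFB, SOD2, ICAM1, CCL2, RGR, STRA6 and SERPINF1 in the summed UMIs of RGR/TTR members (vertical axis, CPM plus 1, log scale). Each gene has 1 point for each of the 5 libraries that have at least 5 such members. UBD, SERPINA3 and CFB lie higher in both hRPGR blebs (triangles) than in the uninjected libraries, while RGR and STRA6 overlap between them. SERPINF1 lies higher in both blebs than in the uninjected areas of NHP2, with the right NHP1 library between the blebs. How many of all genes lie apart in this way was not counted.

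These genes were not at such levels in the free RNA or in the Müller-marker barcodes of the same blebs. In low-count barcodes of the right and left hRPGR blebs, UBD was at 1.56 and 2.08 CPM, SERPINA3 at 1.02 and 3.14 CPM, and CFB at 3.75 and 1.5 CPM. In the Müller-marker barcodes UBD was at 8.52 and 5.24 CPM, SERPINA3 at 10.1 and 11.5 CPM, and CFB at 43.2 and 13.5 CPM. The myeloid list summed to 46.5 and 44.8 CPM in the RGR/TTR members of these blebs, with 10 and 9 of its 12 genes at 0.

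Other genes of inflammation, some of them chosen after their values were seen, were not called in RGR/TTR members with all 4 libraries in the fit. Over all members without the filter on low counts, edgeR called 55 of 15271 genes (0.36%), 12 higher and 43 lower in the blebs. Among the higher were ICAM1 (edgeR adjusted p = 0.000133) and SOD2 (edgeR adjusted p = 0.0398). The levels that follow are those of RGR/TTR members alone, a different set from that fit. The mitochondrial antioxidant enzyme SOD2 was at 605 and 485 CPM in the right and left hRPGR blebs and at 51.0 and 71.6 CPM outside. ICAM1, an adhesion molecule for leukocytes, was at 256 and 134 CPM against 17.0 and 0 CPM. Of the 91 SOD2 UMIs in both blebs, 1 barcode held 14 on the right and 1 held 41 on the left. The right bleb's ICAM1 came from 1 barcode, as did its 36 UMIs of the chemokine CXCL10. On the left, 1 barcode held 10 of the 29 ICAM1 UMIs of both blebs. CCL2, a chemokine for monocytes, overlapped between the groups, at 1070 and 411 CPM in the blebs and 2395 and 1.93 CPM outside, and all 141 UMIs of the right uninjected area were in 1 barcode. Of 8 complement genes, CFB among them, tested by edgeR in RGR/TTR members, 7 had a log2 difference above 0 with a median of 0.54, and 0 were called, against 809 of 1612 above 0 among all genes. Of 11 interferon-response genes, 7 were above 0 with a median of 0.18, and 0 were called.

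Among genes of RPE functions outside the rule, edgeR made no call between hRPGR blebs and uninjected areas in RGR/TTR members, as it made none among all 1612 genes. Of 16 transport genes 6 were above 0, of 7 lysosome and phagocytosis genes 4 and of 14 secreted and matrix genes 7, with 1 secreted gene at an unadjusted p below 0.05. A missing call does not show that these genes did not differ. The 13 rod genes had a median log2 difference of -0.98 with 2 above 0, the rod share having been 1.01% and 0.113% in the blebs and 0.841% and 1.44% outside.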

How the data were processed

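Single-cell RNA was measured in 8 retinal libraries with a droplet 5′ kit. The authors deposited UMI counts per gene and barcode, unfiltered and not normalized, made with Cell Ranger (version not given in the sources used here) on the macaque build Mmul_10 with 3 transgene features added. The files list 678289 to 717865 barcodes per library, empty droplets included. Of 26533 features, 16678 had a symbol in the files, 564 were named from the supplied gene table, 9288 kept their identifier and 3 were transgenes. Reads shared by native RPE65 and the human sequence could be split or lost by the counting, which these counts do not show.

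The members, the gene lists and the tests were chosen with earlier results of these data known. Barcodes were kept at 1500 UMIs and 300 genes. Class rules used 6 markers each, at 10 UMIs and 0.1% of UMIs (rods at 1%). Müller-marker and bipolar-marker barcodes met the rule of that class and not the RPE rule (nor, for Müller, the bipolar rule). No doublet caller was run, and members that met another class rule were counted and left out as an alternative. Member mitochondrial shares were all below 20%. CPM are counts per 1000000 UMIs of the barcodes summed. Genes were named by these rules: the 6 rule genes, the 15 genes outside the rule with the highest lowest-library ratio, the genes of each list with most UMIs, the called genes of each fit with the lowest p (5 higher and 3 lower), the transgenes, and the rod genes with most UMIs. For all members, the genes after RGR in that order were below the 2-fold limit and are not described. SOD2, ICAM1, CXCL10, CCL2 and the 1-barcode counts were chosen after their values were seen.

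UMIs were summed per library and compared over the 3 groups of NHP2 by the quasi-likelihood test of edgeR 4.0.16, with TMM factors after filterByExpr, in R 4.3.3, with DESeq2 1.42.0 as an alternative, after a check on simulated counts. Shares of members were compared by an exact permutation test over all arrangements of the libraries, and binomial intervals were made with scipy 1.17.1. Thinning drew 1500 UMIs per barcode with seed 11. The same eye gave 1 library per condition, so the eye pairs the libraries. Deviations from the group means correlated at -0.44 between hRPGR and uninjected libraries of the same eye, and at -0.01 and 0.06 for the other pairings. Some genes are not reported here. Promoter sequences are from RefSeq's Mmul_10 annotation. Alternatives changed the tool, scaling, filters, pseudocount, marker minimum, thinning and library set.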

Additional observations from a re-analysis of the deposited data

Results flagged for a closer look

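The share of barcodes that met the RPE rule moved in opposite directions in the eyes of NHP2. In the right eye it was higher in the blebs than in the uninjected area, by 0.0149 percentage points for hRPGR and 0.205 for mScarlet. In the left eye the differences were -0.337 and -0.462 percentage points. With RGR/TTR members alone the right mScarlet bleb was lower than the right uninjected area, at 0.0314% against 0.0782%, and the right hRPGR bleb was at 0.0792%. In the left eye these shares were 0% in the mScarlet bleb and 0.227% in the hRPGR bleb against 0.579%. With 1 library per area and eye, the difference between eyes was not tested. The mScarlet members were mostly Müller-marker barcodes, and the left eye also received adalimumab, so eye, drug and biopsy cannot be told apart.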

How the results depend on the processing

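The median of rod RNA in members over free RNA was below 1 under every alternative run. The share of members in blebs against uninjected areas, -0.145 percentage points, ranged from -0.402 to 0.113 when each library was left out, and reversed (0.113) without the left uninjected area. With each library left out, the count of genes called for mScarlet ranged from 0 to 732 (without the right hRPGR bleb), for hRPGR from 0 to 18 (without the left uninjected area) and for both blebs from 0 to 100 (without the right hRPGR bleb). Without the filter on low counts the counts were 1051, 55 and 498, and DESeq2 gave 3 for hRPGR and 127 for both blebs. With the eye as a replicate block, edgeR called 0 genes for mScarlet in place of 431, 0 for hRPGR and 0 for both blebs. In RGR/TTR members the hRPGR count was 0 with the block and 4 with DESeq2, and ranged from 0 to 16 when each library was left out. Genes 2-fold higher in members in all 8 libraries numbered 24 against low-count barcodes. They numbered 2 in members of no other class over the 3 libraries with at least 5 of these, 349 in RGR/TTR members over 5 libraries, and 4 to 203 when each library was left out. The huRPE65 share of 97.3% in the left NHP1 library was 99.1% without thinning, 99.1% at 3000 UMIs, 99.0% in members of no other class and 0% in RGR/TTR members. In the right hRPGR bleb, the 1 member of no other class gave a coRPGR share of 100%, and in the left bleb the share was 55.6% without thinning and 66.7% in members of no other class. The fits on members of no other class were not run, since these left 0 to 17 members a library in NHP2. A limit of 20% mitochondrial UMIs removed no member. The median rod ratio ranged from 0.248 to 0.284 when each library was left out. The alternatives with RGR/TTR members, and the one without the unnamed features, were chosen after seeing the data. The cause of these differences was not tested, and the few members in several libraries (9 to 28 in 5 of 8) limit every comparison.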

Other observations

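TYRP1 and RPE65 also appeared in Müller-marker barcodes outside the rule. In NHP2, RPE65 was found in 4.03%, 5.87% and 0.735% of the Müller-marker barcodes of the right eye (uninjected, mScarlet, hRPGR) and in 0.0765%, 0.126% and 0.181% of its rod-marker barcodes. In the left eye the shares were 6.00%, 3.84% and 1.65% against 5.68%, 0.180% and 0.143%, so the kinds lay close in the left uninjected area. In NHP1 they were 1.74% against 1.5% on the right, and on the left, where huRPE65 was present, 13.4% against 18%. In the right uninjected area and the right mScarlet bleb, TYRP1 was at 120 and 199 CPM in Müller-marker barcodes and at 0.449 and 0.537 CPM in the rod-marker barcodes, while LRAT was at 0.132 and 0 CPM and STRA6 at 0 in the Müller-marker barcodes. These values are a description with no test.

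The interferon-induced gene IFI6 varied between libraries within each kind of member. Among Müller-marker members its medians were 6 UMIs in the right and 4 in the left library of NHP1. For NHP2 they were 88 (mScarlet), 150.5 (hRPGR) and 185 (uninjected) in the right eye, with 36, 39 and 17 in the left eye, where 1 to 25 such members stood behind each value. Among RGR/TTR members the medians of the 7 libraries that held any ran from 0 to 16 UMIs. UMI totals per barcode differed between the kinds and were not matched here.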
